A study of Drepana arcuata with 6 samples.

Results

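Takeout and period are a pair of genes tied to the circadian clock that the study listed among candidate social genes of insects, and in larvae of Drepana arcuata, the masked birch caterpillar, they are the Trinity genes TRINITY_DN19810_c0_g1 and TRINITY_DN20311_c0_g1. They were taken by these identifiers from the deposited tables and are 2 of the 116079 Trinity genes of the assembly. Trinity, the assembler, groups transcripts with shared sequence into genes, and the members of such a group are called isoforms here. Takeout holds 20 isoforms and period 22. The names rest on the study's homology search, since the tables pair no transcript with a gene name, and the label could be checked no further.

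Late instars (IV and V) live alone in leaf shelters and gave 3 libraries, each from a pool of 5 whole larvae. Early instars (I and II) live in groups and gave 3 libraries, each from a pool of 20 whole larvae. All larvae descended from 1 female and were reared on paper birch under 16 h of light and 8 h of dark. No treatment, mutation or transgene was involved, and the hour at which larvae were frozen is not given in the sources used here. Because whole bodies were pooled, fewer cells that make a transcript and less of it per cell cannot be told apart. With reads of 150 bp, the libraries held 11177800 to 46307057 expected counts, the fragments that RSEM assigned to transcripts. Late replicate 2 stood apart among the late libraries, with an r of 0.937 and 0.955 to replicates 1 and 3, which reached 0.983 with each other (log2 CPM across genes, which are not replicates).

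Period encodes a core protein of the negative limb of the circadian clock. In Drosophila it acts with timeless to repress the activators Clock and cycle, which switch on its own transcription, so its RNA rises and falls each day. Takeout was found in Drosophila as a gene under clock control that responds to starvation and bears on feeding. It belongs to a family of secreted proteins related to the juvenile hormone binding proteins of moths, and in the migratory locust a takeout gene has been tied to the behaviour of gregarious and solitary animals. The comparison of solitary late with social early instars asks whether the RNA of these genes differs between the stages. Social behaviour changed together with instar, body size and the number of larvae pooled, so their parts in a difference cannot be told apart. No sequence of these transcripts is printed, as none was among the files analysed.

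Both genes were lower in late than in early instars, where the mean CPM of takeout was 5.12 and that of period 5.47 times as high (4.68 and 3.55 times in TPM). Summed over its 20 isoforms, takeout had 26.9, 79.9 and 25.4 CPM in late replicates 1, 2 and 3, against 346, 165 and 165 CPM in early replicates 1, 2 and 3 (CPM, counts scaled to a common library size after TMM normalization). Late replicate 2 was the highest of its stage and early replicate 1 of its own, and the stages did not overlap. Takeout averaged 44.1 ± 31.1 CPM in late and 226 ± 104 CPM in early instars (SD, n = 3 each). It fell in late instars with a log2 fold change (late minus early) of -2.36 (standard error, SE, 0.52, adjusted p = 0.0104, quasi-likelihood test of edgeR with Benjamini-Hochberg adjustment over 22132 Trinity genes).

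Summed over its 22 isoforms, period had 7.70, 13.9 and 7.78 CPM in late replicates 1, 2 and 3, against 60.1, 76.6 and 23.7 CPM in early replicates 1, 2 and 3. Again late replicate 2 was the highest late library, early replicate 3 was well below the other early libraries, and the stages did not overlap. Period averaged 9.78 ± 3.54 CPM in late and 53.5 ± 27.0 CPM in early instars (SD, n = 3 each). It fell in late instars with a log2 fold change of -2.45 (SE 0.45, adjusted p = 0.00408, quasi-likelihood test of edgeR).

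**Figure D1:**
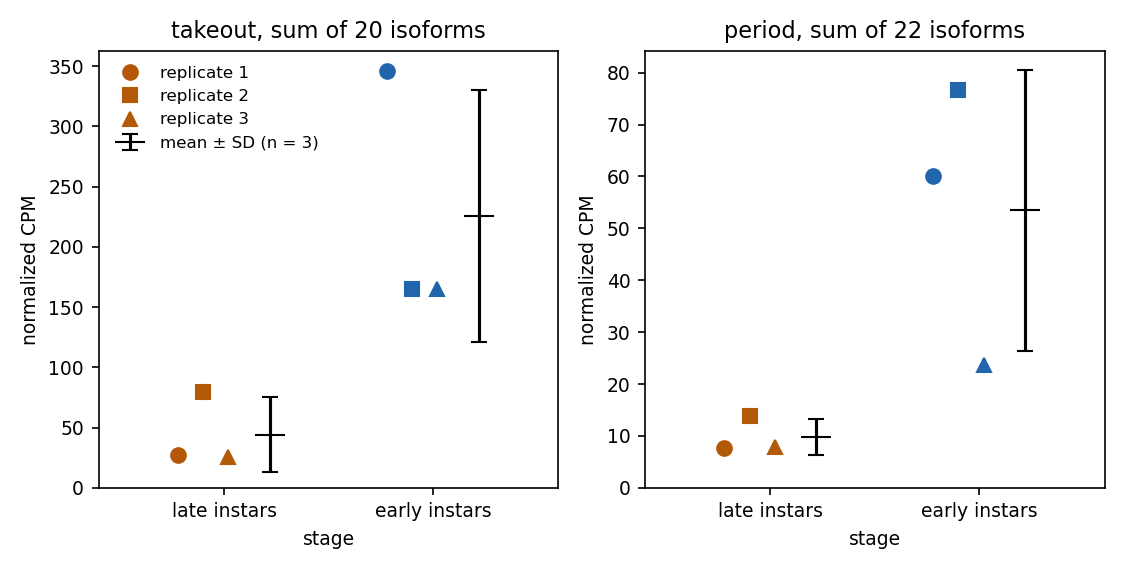
Normalized CPM (y axis) of takeout and period, summed over all isoforms, in the 3 late and 3 early instar libraries (x axis). Symbols mark the replicate number, and black bars give the mean and SD of 3 libraries. Every late library lies below every early library, and late replicate 2 is the highest late one for each gene, with 79.9 CPM for takeout and 13.9 CPM for period.

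A fall of this kind was common in the series. An adjusted p of at most 0.05 was reached by 29.7% of the genes tested, 15.7% with lower and 14% with higher levels in late instars, and in 23.8% all late libraries lay below all early ones. In size, the falls of takeout and period were toward the end of the range, where 5.35% and 5.08% of genes had a log2 fold change as low or lower. The limits of the study were an adjusted p of 0.001 or less with a log2 change of 2 or more either way. In the quasi-likelihood test, 8.82% of genes passed them, 3.96% on the side lower in late instars, and neither takeout nor period did. By edgeR's exact test both did, with takeout at -2.36 (adjusted p = 0.000148) and period at -2.45 (adjusted p = 2.9e-06). By the Wald test of DESeq2 they also did, at -2.30 (adjusted p = 9.7e-06) and -2.40 (adjusted p = 2.9e-07). The share of all genes past these limits in those tests is not given here. Labels do not say whether replicates were separate cultures beyond being separate pools of siblings, so the p-values measure the spread between these pools.

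The spread between libraries of a stage was wide for both genes. The SD of log2(CPM + 1) was 0.91 for takeout and 0.44 for period in late instars, and the median gene had 0.23. In early instars it was 0.61 for takeout and 0.87 for period, against a median of 0.22. Takeout was thus more variable than 96.8% of genes in late and 96.4% in early instars, and period more variable than 83.1% and 98.8%. Which library was high differed between the genes in early instars only: replicate 1 led for takeout and replicate 2 for period, whereas replicate 2 led for both in late instars.

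The difference of each gene passed with any 1 library left out. With each library left out in turn, the log2 fold change of takeout stayed between -3.11 and -1.90 and that of period between -2.79 and -2.11, and each of these fits had an adjusted p of at most 0.05 (quasi-likelihood test of edgeR). The largest shift came without late replicate 2, where takeout was at -3.11 (adjusted p = 0.00024, quasi-likelihood test of edgeR), a fold of 8.61 between the stages in place of 5.12. The value nearest to 0 for takeout came without early replicate 1, with -1.90 (adjusted p = 0.0404, quasi-likelihood test of edgeR).

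**Figure D2:**
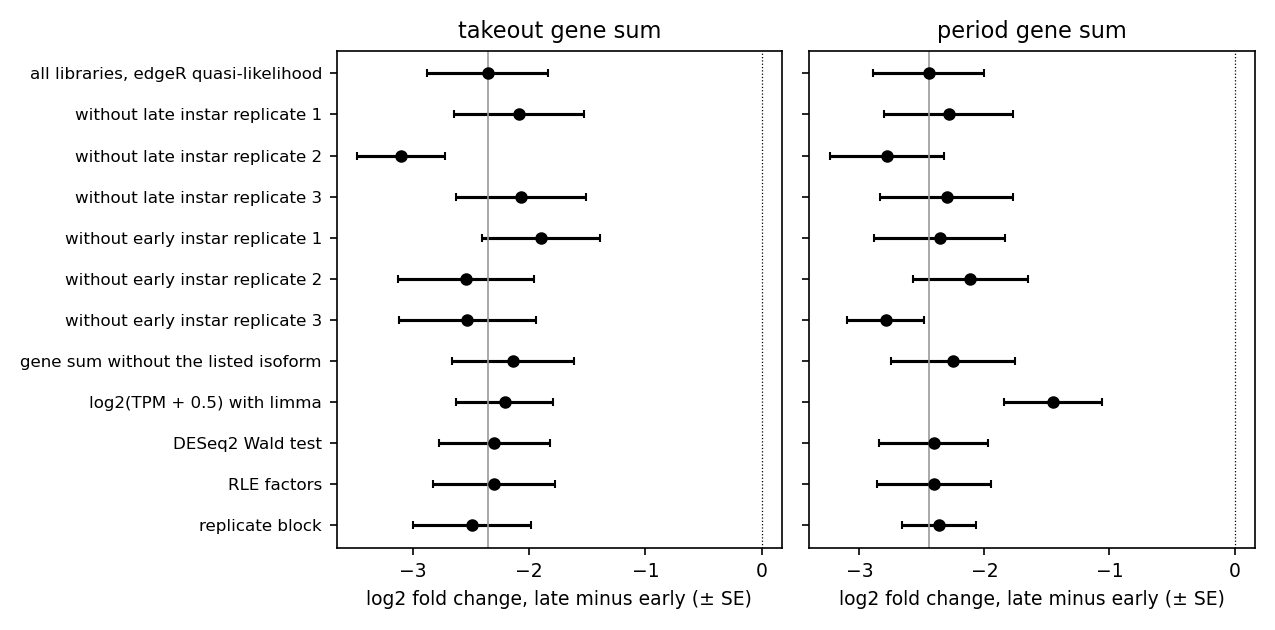
Log2 fold change, late minus early, with its standard error (x axis) of the summed counts of takeout and period under the settings named on the y axis. All points lie below 0. Takeout is lowest without late replicate 2, at -3.11, and period is nearest to 0 on log2(TPM + 0.5), at -1.45.

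Levels of different genes can be compared only per transcript length, for which TPM, the abundance RSEM gives within a library after dividing by effective length, was used. Takeout had 9.07, 20.9 and 8.04 TPM in late replicates 1, 2 and 3, against 91.3, 47.3 and 39.0 TPM in early replicates 1, 2 and 3. Period had 1.23, 2.17 and 1.29 TPM in late replicates 1, 2 and 3, against 6.58, 7.66 and 2.42 TPM in early replicates 1, 2 and 3. From high to low, the order of mean levels was takeout in early instars (59.2 ± 28.1 TPM), takeout in late instars (12.7 ± 7.12 TPM), period in early instars (5.55 ± 2.77 TPM) and period in late instars (1.56 ± 0.526 TPM; SD, n = 3 each). No neighbours in this order overlapped in their single values, though takeout in late and period in early instars came close, at 8.04 TPM for the lowest of the first and 7.66 TPM for the highest of the second.

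For period the gap between the stages was narrow on this scale, since the lowest early library had 1.12 times the TPM of the highest late one. The mean TPM in early instars was 3.55 times that in late instars for period and 4.68 times for takeout, so the order of the folds was the reverse of that in CPM. Tested on log2(TPM + 0.5) with limma, the difference of period was -1.45 (SE 0.39, adjusted p = 0.0333), and that of takeout was -2.21 (SE 0.42, adjusted p = 0.00727). In rank among the genes tested, takeout stood above 80.8% of genes in late and 93.8% in early instars by mean TPM, and period above 30.6% and 70.4%.

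Within a library, takeout was 7.37, 9.61 and 6.23 times as high as period in TPM in late replicates 1, 2 and 3, against 13.9, 6.18 and 16.1 times in early replicates 1, 2 and 3. The ranges overlapped, as early replicate 2 had the lowest ratio of all. The mean log2 ratio was 2.93 ± 0.32 in late and 3.48 ± 0.74 in early instars (SD, n = 3 each), a difference of -0.55 with p = 0.4 in an exact two-sided permutation test, whose smallest possible p is 0.1. A difference between the stages in the balance of the pair was not detectable with 3 libraries a stage.

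The summed counts and CPM above do not depend on how RSEM divided a fragment among isoforms of a gene, but the summed TPM, the ratios made from it and the values of single isoforms do. The 20 takeout isoforms ran from 269 to 2041 bp. Of these, 11 passed the filter of more than 1 CPM in at least 2 libraries and 9 did not, and 2 of those 9 had 0 counts in every library. The 22 period isoforms ran from 228 to 5207 bp, 8 passed and 14 did not, and 1 of those had 0 counts throughout. An isoform high in a single stage could pass through that stage alone, so the direction of those that passed is no added support. Isoforms that did not pass held up to 19.05% of the takeout counts of a library and up to 60.2% of the period counts, in each case in late replicate 2.

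**Figure D3:**
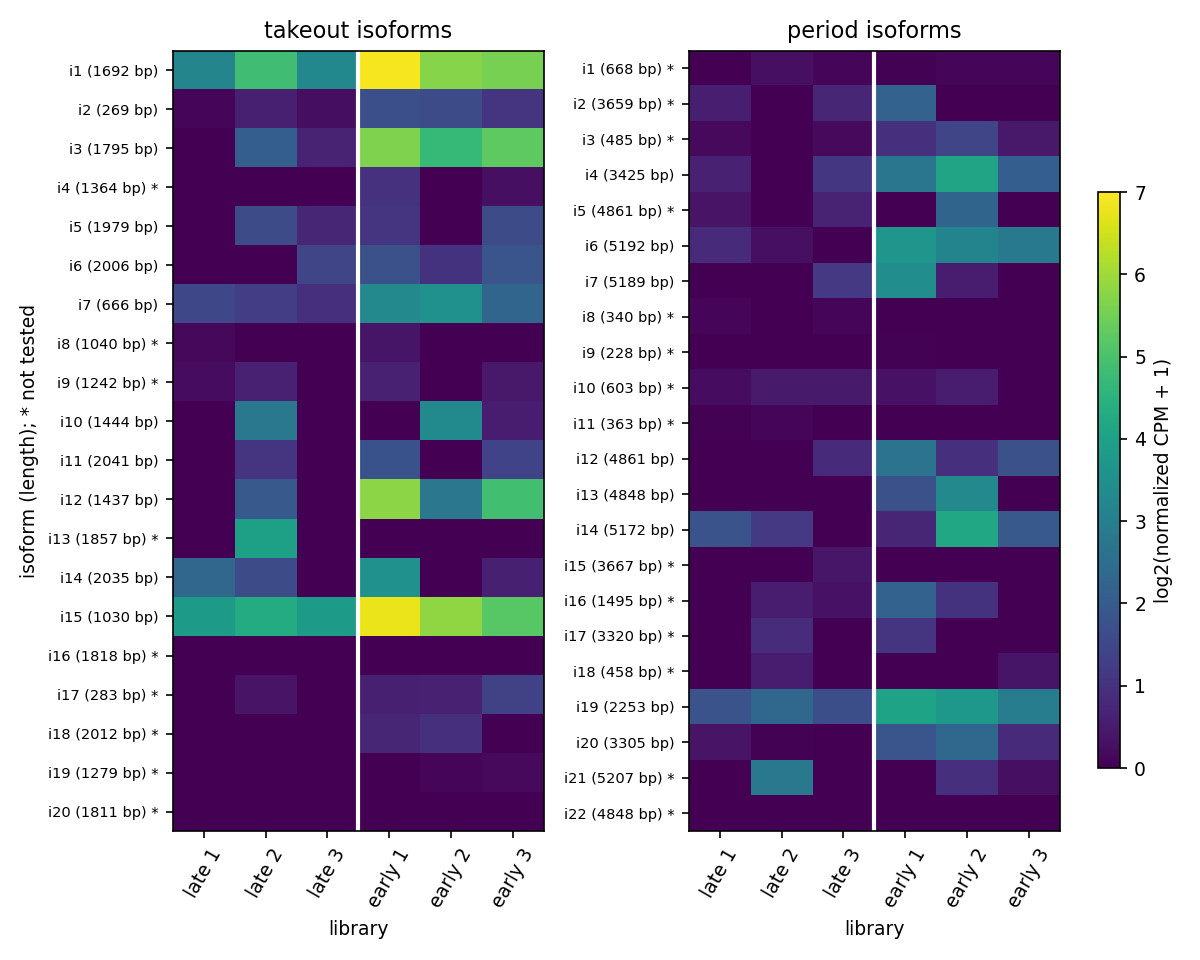
Log2(normalized CPM + 1), shown as colour, of all 20 takeout and 22 period isoforms (rows, with length, an asterisk marking those that did not pass the filter) in the 3 late and 3 early libraries (columns). Isoforms i1 and i15 of takeout and i19 of period have signal in all 6 libraries, and i13 of takeout has signal in late replicate 2 alone, with 14.7 CPM.

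The most abundant takeout isoform by TPM was i15 (1030 bp) in all 6 libraries. It had 479, 510.2 and 193 expected counts in late replicates 1, 2 and 3, against 5077, 610.1 and 807 in early replicates 1, 2 and 3. In CPM the stages did not overlap, with 13.1, 18.9 and 13.2 CPM in late and 109.6, 56.6 and 35.3 CPM in early replicates 1, 2 and 3. The isoform fell in late instars, with a log2 fold change of -2.16 (SE 0.45, adjusted p = 0.0375, quasi-likelihood test of edgeR over 52912 transcripts). So did i7 (666 bp), at 1.41 ± 0.454 CPM in late and 7.77 ± 3.50 CPM in early instars (log2 fold change -2.45, SE 0.51, adjusted p = 0.0371, quasi-likelihood test of edgeR). The second of the abundant isoforms, i1 (1692 bp), had 8.08, 28.1 and 8.65 CPM in late and 119.5, 52.1 and 46.3 CPM in early replicates 1, 2 and 3. Its log2 fold change of -2.28 did not pass (SE 0.65, adjusted p = 0.0894, quasi-likelihood test of edgeR).

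The most abundant period isoform by TPM was i19 (2253 bp), also in all 6 libraries. It had 2.44, 4.18 and 2.18 CPM in late replicates 1, 2 and 3, against 15.7, 12.2 and 6.87 CPM in early replicates 1, 2 and 3. The stages did not overlap, and it fell in late instars with a log2 fold change of -1.98 (SE 0.45, adjusted p = 0.0463, quasi-likelihood test of edgeR). It was the only period isoform to pass. Among all transcripts tested, 9.26% passed an adjusted p of at most 0.05, those lower in late instars making up 4.25% of all, and in 17.2% all late libraries lay below all early ones. These calls were less firm than those of the gene sums, and none of i7, i15 and i19 passed without early replicate 1, early replicate 2, late replicate 1 or late replicate 3. Without late replicate 2, i19 passed, but i7 (adjusted p = 0.0740) and i15 (adjusted p = 0.0547, quasi-likelihood test of edgeR for each) did not.

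The isoforms that the study listed showed larger folds with larger errors. They were picked among its calls on these libraries, so their difference is not independent evidence. Takeout i3 (1795 bp) had 0, 88.6 and 8.69 expected counts in late replicates 1, 2 and 3, against 2284, 270.4 and 854 in early replicates 1, 2 and 3. Nearly all of its late counts were in replicate 2. Its log2 fold change of -4.83 had an SE of 1.46 and did not pass (adjusted p = 0.105, quasi-likelihood test of edgeR). Over 16 alternatives the adjusted p ran from 0.00115 to 0.254 and was at most 0.05 in 5.

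Period i6 (5192 bp) had 29.8, 5.53 and 0 expected counts in late replicates 1, 2 and 3, against 530, 85.8 and 139 in early replicates 1, 2 and 3. The stages did not overlap, and the log2 fold change was -4.50 (SE 1.12, adjusted p = 0.0614, quasi-likelihood test of edgeR). Over 15 alternatives the adjusted p ran from 0.000174 to 0.158 and was at most 0.05 in 4. With the listed isoform taken out of each sum, takeout was still lower in late instars by -2.14 (SE 0.52, adjusted p = 0.0165) and period by -2.25 (SE 0.49, adjusted p = 0.0100, quasi-likelihood test of edgeR for each).

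**Figure D4:**
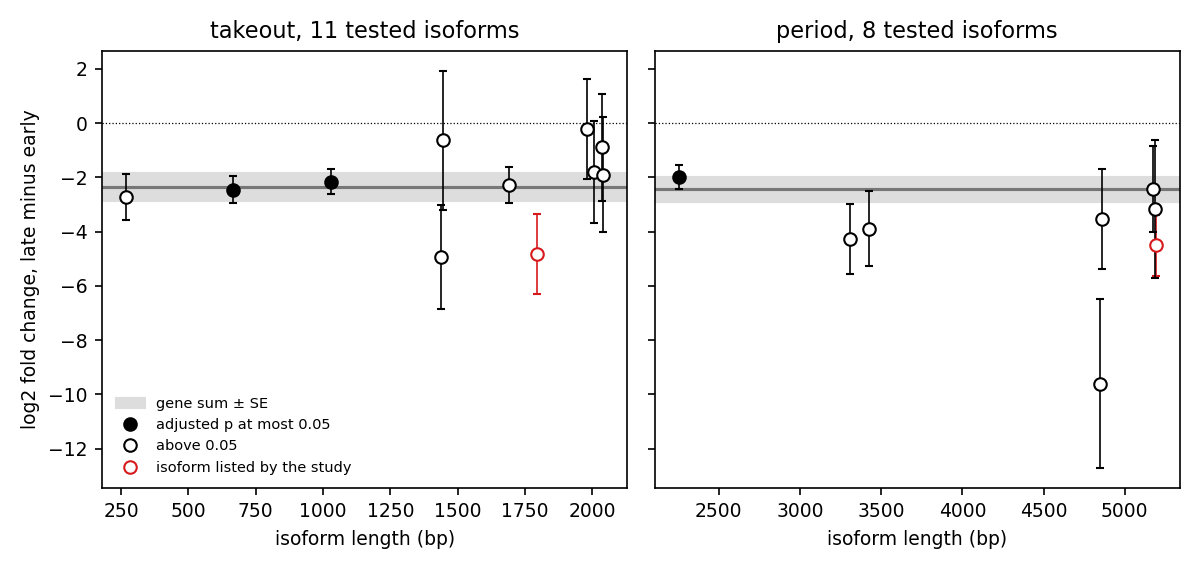
Log2 fold change, late minus early, with its standard error (y axis) against isoform length in bp (x axis) for the 11 takeout and 8 period isoforms that passed the filter. Filled points have an adjusted p of at most 0.05, red points are the listed isoforms, and the grey band is the gene sum and its standard error. The filled isoforms, i7 and i15 of takeout and i19 of period, lie at -2.45, -2.16 and -1.98, close to the sums, and the listed ones lie lower, at -4.83 and -4.50.

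As a share of its gene, i3 held 0%, 2.79% and 1.37% of the takeout TPM in late replicates 1, 2 and 3, against 9.05%, 8.91% and 15.1% in early replicates 1, 2 and 3. Period i6 held 4.39%, 0.54% and 0% in late replicates 1, 2 and 3, against 9.41%, 5.67% and 12.97% in early replicates 1, 2 and 3. For each of them the late shares lay below the early ones, and the exact two-sided permutation test gave p = 0.1, the smallest it allows. These listed isoforms were picked among the study's calls on these libraries, so their lower late shares are not independent evidence. Period i20 (3305 bp), which was not listed, also had lower late shares, with p = 0.1 in the exact two-sided permutation test. It passed the filter through early replicates 1 and 2 alone, so its lower late shares are no added support. Shares went the other way for period i10 (603 bp), which did not pass the filter and was left out of the permutation test. It held 9.66%, 12.3% and 19.95% of period TPM in late and 2.58%, 3.87% and 0% in early replicates 1, 2 and 3. Untested period isoforms together held 43.4%, 69.3% and 57.1% of TPM in late and 33.3%, 30.9% and 26.9% in early replicates 1, 2 and 3. How common such a separation of shares is among all isoforms was not tested. The ranges overlapped for the isoform with the largest share, i15, which held 55.6%, 30.5% and 57.2% of takeout in late replicates 1, 2 and 3, against 38.0%, 37.9% and 26.8% in early replicates 1, 2 and 3 (exact permutation p = 0.3). The share of i19 in period overlapped between stages, at 31.5%, 26.8% and 24.7% in late and 31.2%, 21.0% and 35.1% in early replicates 1, 2 and 3 (exact permutation p = 0.9).

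Fitted relative to the gene, i3 was at -2.31 on the log2 scale and i6 at -1.49, with unadjusted p of 0.0777 and 0.361 (edgeR diffSpliceDGE). None of the 19 isoforms passed an adjusted p of 0.05 in this test, and 1 had an unadjusted p under 0.05, namely period i13 (4848 bp), against 1.56% and 5.87% of all isoforms tested. Without late replicate 2, takeout i12 (1437 bp) passed, at -9.53 (adjusted p = 0.0180, edgeR diffSpliceDGE). It had 0, 76.6 and 0 expected counts in late replicates 1, 2 and 3, against 2509, 63.1 and 657 in early replicates 1, 2 and 3. Period i13 had no more than 0.01 expected counts in any late library, against 107, 95 and 0 in early replicates 1, 2 and 3. Its mean in early instars was at least 96.7-fold above a floor of 3 counts over the 3 late libraries, a bound that covers counting error only. Period i13 passed the filter through early replicates 1 and 2 alone. Its log2 fold change of -9.60 did not pass (SE 3.11, adjusted p = 0.168, quasi-likelihood test of edgeR).

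**Figure D5:**
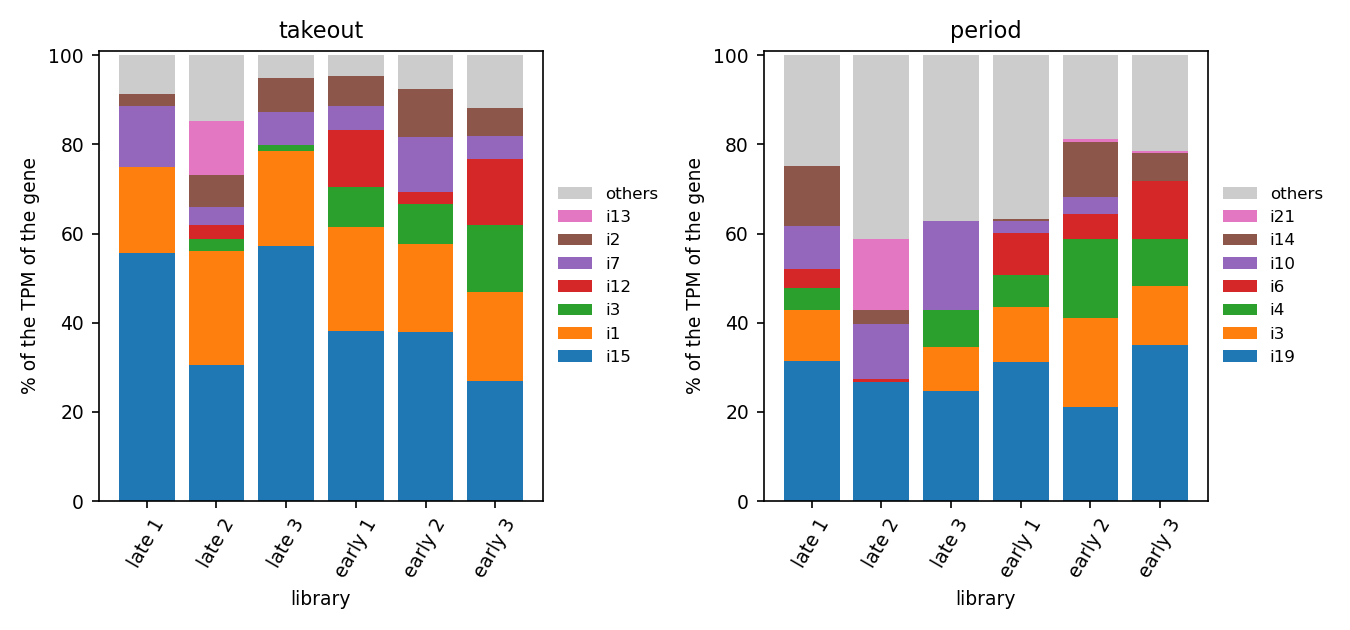
Percent of the TPM of takeout and of period (y axis) held by each of 7 isoforms, named in the legend, and by all others together, in each library (x axis). Isoform i15 is the largest part of takeout in every library, from 26.8% in early replicate 3 to 57.2% in late replicate 3, and i19 is the largest part of period, from 21.0% to 35.1%.

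The mean length of the RNA of a gene, weighted by TPM, overlapped between the stages for takeout, with 1167, 1303 and 1146 bp in late and 1254, 1115 and 1233 bp in early replicates 1, 2 and 3. For period it was 2286, 2057 and 2028 bp in late and 2777, 2883 and 2652 bp in early replicates 1, 2 and 3. The late values of period were all below the early ones. The part of this in the smaller fold of period in TPM than in CPM was not tested. Among the 4 period isoforms over 5000 bp, the summed share of period TPM was 17.8%, 19.7% and 5.74% in late and 18.1%, 18.9% and 19.6% in early replicates 1, 2 and 3.

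The genes most like each member over the 6 libraries were sought among genes within 1 log2 unit of its mean level, by the root mean square difference of centred log2(CPM + 1) values. For takeout these were TRINITY_DN18074_c3_g1, at 0.31, and TRINITY_DN16849_c0_g1, at 0.41, among 3346 genes with a median of 1.41. The first had 29.2, 112.6 and 36.0 CPM in late replicates 1, 2 and 3, against 406, 341 and 285 CPM in early replicates 1, 2 and 3, so that it shared the high late replicate 2. For period they were TRINITY_DN22281_c2_g1, at 0.25, and TRINITY_DN18813_c0_g1, at 0.30, among 5855 genes with a median of 1.29. The first had 6.54, 9.63 and 7.58 CPM in late replicates 1, 2 and 3, against 77.9, 69.0 and 22.5 CPM in early replicates 1, 2 and 3, so that it shared the low early replicate 3. Takeout and period themselves were 0.59 apart. Their mean levels differ by more than 1 log2 unit, so neither was in the other's set of genes and the pair has no rank there. The sources used here give these 4 neighbours no name.

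No other clock or takeout family gene is named in the files, so takeout and period were set beside the 9 other candidate social genes of the study, which chose them for their roles in other insects and in worms. Of their 9 Trinity genes, all tested, 3 were lower and 3 higher in late instars at an adjusted p of at most 0.05 (quasi-likelihood test of edgeR), against 15.7% lower and 14% higher among all genes tested. They had a median log2 fold change of -0.20 and a range from -4.98 to 7.06, against a median of -0.0027 over all genes tested. At the level of the listed transcripts, 3 were lower and 2 higher of 9, against 9.26% of all transcripts tested that passed in either direction. Some of the listed transcripts were calls of the study on these same libraries, so neither set of counts is independent evidence.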

How the data were processed

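The authors trimmed reads with Trimmomatic 0.36, built 1 assembly from all libraries with Trinity, and ran RSEM on each library. The version of RSEM is not given in the sources used here, nor is its aligner. Its deposited expected counts are not normalized, its deposited TPM and FPKM are scaled within a library, and its deposited isoform percent is relative to the TPM of the gene. FPKM was not used.

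Expected counts, per transcript or as sums per Trinity gene, were rounded, filtered at more than 1 CPM in at least 2 of 6 libraries, and tested with edgeR 4.0.16 in R 4.3.3 (TMM, glmQLFit, glmQLFTest, no covariate). Isoform usage was tested with diffSpliceDGE. A feature passed at an adjusted p of at most 0.05, since the limits of the study could not be met by any transcript in this test. Alternatives included edgeR's exact test, DESeq2 1.42.0, limma 3.58.1 on log2(TPM + 0.5), other filters and factors, a replicate block, and each library left out. 1 CPM is 11.2 to 46.3 counts in the shallowest and deepest library. Library pairs of a stage differed beyond sampling noise (chi-square per degree of freedom at least 27.2), so all 6 were kept. The tests were also run on simulated counts whose planted changes were larger than those of the 2 gene sums. Their power at smaller changes was not checked.

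The text names takeout, period, all their isoforms and, for each gene, the 2 nearest in pattern. The members, lists and limits were chosen with earlier results of these data known.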

Additional observations from a re-analysis of the deposited data

How the results depend on the processing

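The lower level of the summed counts in late instars kept its direction and an adjusted p of at most 0.05 in all 18 alternatives of takeout (log2 fold change from -3.11 to -1.90, adjusted p up to 0.0404) and all 18 of period (from -2.79 to -1.45, adjusted p up to 0.0333), the limits of the study set aside. Under those limits, neither takeout (-2.36) nor period (-2.45) passed in the quasi-likelihood test, whereas both passed by edgeR's exact test and by DESeq2. The share of all genes past those limits by the exact test or DESeq2 is not given here. At an adjusted p of at most 0.05, 6871 of 22132 genes passed by the exact test. By DESeq2 7296 did, where 68 genes had no adjusted p. In the quasi-likelihood test, 1953 genes, 0 transcripts and 0 of the 19 isoforms passed them, against 6569 genes, 4898 transcripts and 3 isoforms at 0.05. Of the isoforms, 9 passed by edgeR's exact test, 10 by DESeq2 and 6 with no filter, and with a library left out the number ran from 0 to 4. Over all 52912 transcripts, 7969 passed by the exact test and 10580 by DESeq2, where 554 had no adjusted p. With no filter 6435 transcripts passed, among a number tested that is not given here, and 2527 to 5667 did with a library left out. The number of isoforms past the usage test was 0 to 1 with a library left out. With a library left out, takeout i14 ran from -1.83 to 2.79 (without early replicate 1) and takeout i5 from -1.69 to 0.72 (without early replicate 3), with 0.38 without late replicate 1, and neither passed in any fit. Same-numbered libraries deviated together with an r of 0.11, 0.020 and 0.22 across genes, and differently numbered ones with an r from -0.24 to 0.047. These weak values cannot decide whether the numbers pair the samples. The replicate block left 353 transcripts and 0 of the isoforms past the threshold and gave takeout -2.49 and period -2.36. The fold of period (early over late) was 5.45 in the count fit and 2.73 on log2(TPM + 0.5) with limma, where unit, pseudocount and test changed together. As a ratio of stage means it was 5.47 in CPM and 3.55 in TPM. The cause was not tested. Late libraries held 117 to 383 counts for all period isoforms together, which limits the precision of each.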

Other observations

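Some isoforms had their signal in late replicate 2 alone or nearly so. Takeout i13 (1857 bp) had 397 expected counts in late replicate 2 and 0 in the other 5 libraries, which was 12.1% of the takeout TPM of that library. Period i21 (5207 bp) had 163 expected counts in late replicate 2 and 0 in late replicates 1 and 3, against 0.33, 9.87 and 5.07 in early replicates 1, 2 and 3, and held 15.9% of the period TPM of late replicate 2. Neither had more than 1 CPM in at least 2 libraries, so neither passed the filter or was tested. In the same library takeout had 13 isoforms with at least 1 count, against 7 in each of the other late libraries and 15, 11 and 15 in early replicates 1, 2 and 3. That library also held the most takeout counts of its stage, 2209 against 999 and 382 in late replicates 1 and 3. The part of this in the number of isoforms was not tested.

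The read cluster from which Trinity built takeout holds 7 further Trinity genes with 13 isoforms, and that of period holds none. Together these neighbours of takeout had 50.03, 52.99 and 31 expected counts in late replicates 1, 2 and 3, against 69.76, 17.98 and 54.01 in early replicates 1, 2 and 3. They were far below takeout itself, which had 382 to 2209 counts in late and 1767 to 16825 in early libraries. Only TRINITY_DN19810_c0_g6 passed the filter. Added to takeout, they left its log2 fold change at -2.35 (adjusted p = 0.0104, quasi-likelihood test of edgeR).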
